A study of Homo sapiens with 6 samples.

Results

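SNAREs and synaptotagmins are the proteins that bring a vesicle and its target membrane together and fuse them. Their mRNA levels were examined in PANC-1 cells, an established human pancreatic ductal adenocarcinoma line, with silencing of ZDHHC20, a palmitoyl acyltransferase that attaches fatty acyl chains to cysteines of other proteins. The set was a list of 44 genes comprising synaptotagmins, SNAREs, the disassembly factors NSF and NAPA, and the Sec1/Munc18 (SM) proteins STXBP2 and STXBP3. Of these, 41 had a row among the 27394 genes of the table and all 41 averaged 1 or more across the 6 libraries, the level at which 22189 genes were tested. SYT13, SYT14 and SYT16 had no row and were not analysed here. The lowest means among the 41 were those of SNAP25 at 9.12, SYT12 at 51.0 and VAMP5 at 80.6, and STX19, a SNARE outside the list, lay just under the limit at 0.998.

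The 6 libraries came from total RNA. By their titles, 3 were of shControl cells, with a control shRNA, and 3 of shZDHHC20 cells, with an shRNA against ZDHHC20. The deposited columns are headed NC and siZDHHC20 instead, and their match to the titles is a reading of these names. Both groups were PANC-1 cells with a shared growth protocol, the model is 1 cell line, and which of the study's shRNAs was used here is not given in the sources used here. Nothing in the labels says that the replicates were separately infected, so p-values measure the spread between these libraries, which may be technical. Only mRNA was measured, and in bulk samples fewer cells of a type and less RNA per cell cannot be told apart.

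A SNARE complex is a bundle of helices, of which Qa, Qb and Qc come mostly from the target membrane and R mostly from the vesicle. Most syntaxins supply Qa helices, while STX6, STX8 and STX10 supply Qc helices. SNAP25-like proteins (Qbc) supply Qb and Qc together, and VAMPs, YKT6 and SEC22B supply R helices. Calcium-binding synaptotagmins couple fusion to calcium, SM proteins guide assembly, and the ATPase NSF with its adaptor NAPA takes spent complexes apart. Secretory epithelia, including those of the pancreas, rely on this machinery to release granules and to carry proteins between the Golgi, endosomes and the cell surface.

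Values are the deposited normalized read counts, which are not divided by gene length. Changes are log2 fold changes of shZDHHC20 over shControl on the log2(value + 0.1) scale, with standard errors (SE), from limma's moderated test over all genes tested, two-sided, with Benjamini-Hochberg adjusted p and a threshold of 0.05. The sums of normalized counts ran from 17083300 to 18007700 per library. ZDHHC20 itself had 2001, 2033 and 1940 in shControl and 872, 779 and 893 in shZDHHC20, a log2 fold change of -1.23 (SE 0.0649, adjusted p = 4.36e-07). The second shZDHHC20 library stood apart from the other shZDHHC20 libraries. The SD of its log2 differences from them was 0.178 and 0.198, against 0.0674 to 0.0722 in every other pair within a group, and mitochondrial genes took 4.01% of its counts against 5.28% to 5.52% elsewhere. Counts without it are given below. The cells carried the epithelial keratins KRT8, KRT18 and KRT19 and vimentin at high levels, while KRT7 of the same list averaged only 85.9. None of the 5 markers of that list passed the threshold. KRT8 and KRT18 were lower without overlap between groups (adjusted p = 0.0631 and 0.0549), and KRT19 was higher without overlap (adjusted p = 0.218). Summed neuroendocrine and neuronal markers, 13 of 18 with a row, were 1070 to 1115 in shControl and 980 to 1146 in shZDHHC20. SCG2 alone of them passed (log2 fold change 0.65, adjusted p = 0.0057). Of the 10 tested, 4 had positive and 6 negative log2 fold changes. Among those not past the threshold, SYN1 was at 0.69, SYP at -0.50 and CHGB at -0.33 (adjusted p = 0.166, 0.103 and 0.124). CHGA, STMN2, NEUROD1 and ELAVL4 were among those without a row. The acinar, islet, immune and endothelial marker lists each summed to at most 55.6 in any library, and of the fibroblast list COL1A1 fell (-0.27, adjusted p = 0.00288). The part of these markers in the results below was not tested.

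Among the fusion genes past the threshold SYT11 fell most, to 29.9% of its shControl level. STX6 and STX12, which had the next smallest adjusted p, fell and rose. In all, 15 of 41 fusion genes passed the threshold, 36.6%, beside 11.5% of all genes tested. Of these 10 were higher, 24.4% of the members against 4.61% of all genes, and 5 were lower, 12.2% against 6.84%. Genes averaging 100 or more, as most members did, passed more often, at 21.7%. Of these 10908 genes, 917 were higher and 1447 lower, so the share of members that fell is not above theirs. The groups did not overlap for 18 of 41 members, 43.9%, against 28.6% of all genes tested. An unadjusted p under 0.01 with a fold of at least 1.5 was met by SYT5, SYT11 and VAMP5, 7.32% of the members against 2.45% of all genes. Shares without overlap and shares meeting this criterion were not computed for genes averaging 100 or more. The median log2 fold change of the members was 0.08 against 0.01 over all genes.

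**Figure D1:**
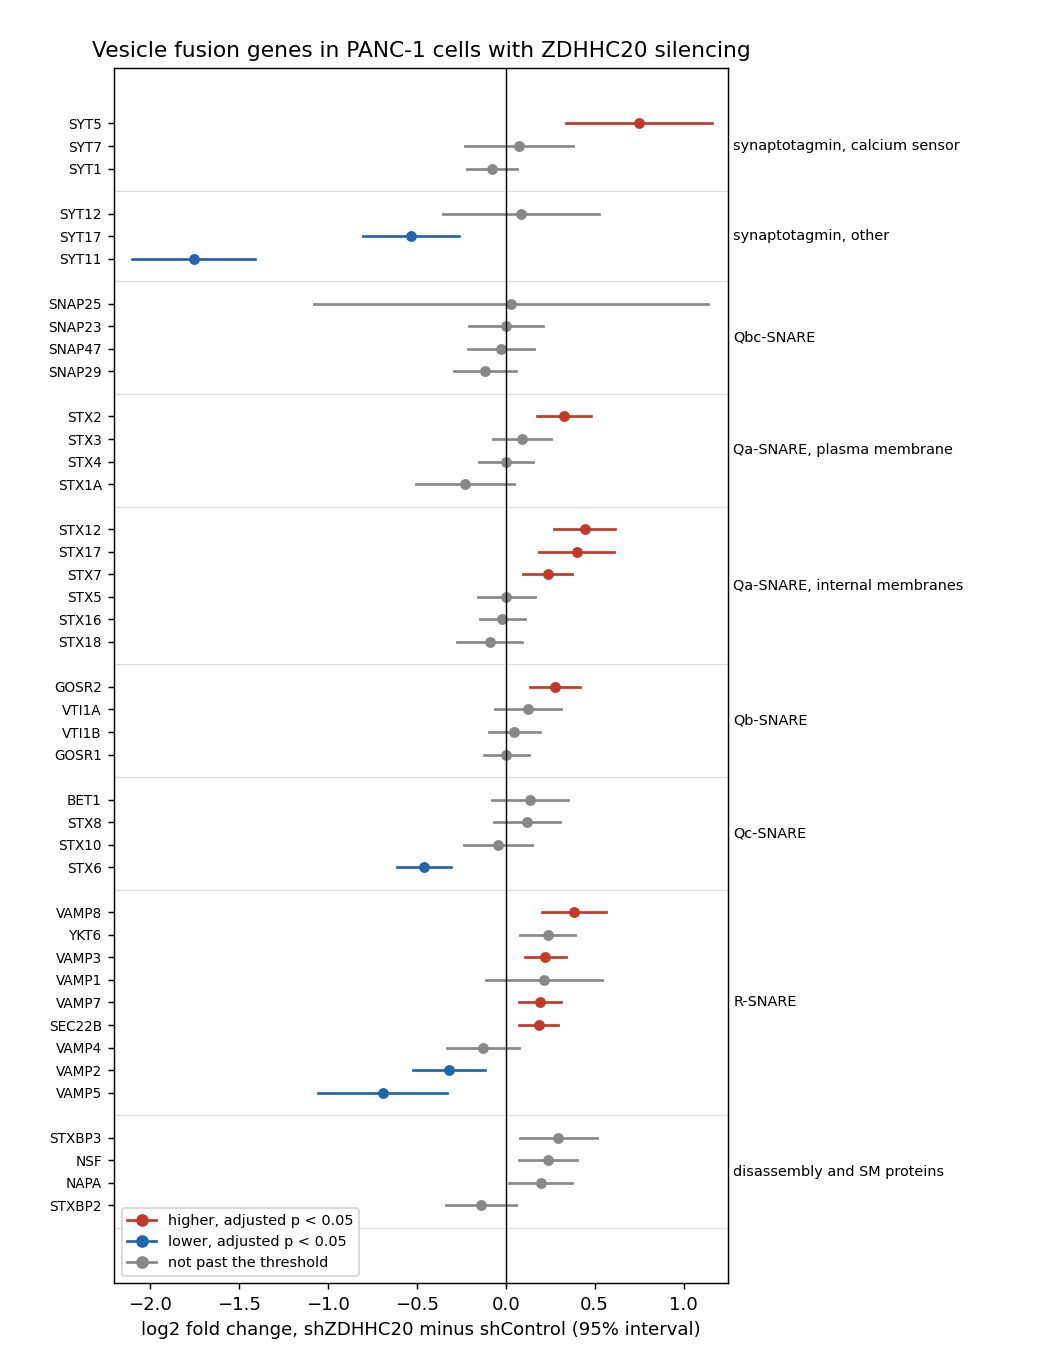
The log2 fold change (x axis, shZDHHC20 minus shControl) of the 41 fusion genes, grouped by role, with 95% intervals as bars. Red genes rose, blue genes fell and grey genes did not pass the adjusted threshold of 0.05, and SYT11 at -1.75 lies farthest from 0.

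Among synaptotagmins, 3 of 6 measured members passed, 1 higher and 2 lower. That is 50%, beside 11.5% of all genes and 21.7% of those averaging 100 or more, on few genes and without a test. SYT11 (ENSG00000132718), a synaptotagmin that does not bind calcium, had 187, 223 and 215 normalized counts in shControl and 49.8, 65.7 and 71.2 in shZDHHC20. Every shZDHHC20 library was below every shControl library, with a log2 fold change of -1.75 (SE 0.161, adjusted p = 1.96e-05). SYT17, another member outside the calcium sensors, had 214, 187 and 170 in shControl and 131, 137 and 125 in shZDHHC20. It too separated the groups, at -0.53 (SE 0.125, adjusted p = 0.0145), although SYT17 shares exon bases on its own strand with AC099518.3.

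SYT5, a calcium-binding synaptotagmin of secretory granules, moved the other way. It had 63.7, 61.3 and 61.1 in shControl and 78.4, 125 and 115 in shZDHHC20. The groups did not overlap, but the first shZDHHC20 library lay well under the other two of its group. The log2 fold change was 0.75 (SE 0.190, adjusted p = 0.0214). SYT1, the sensor of fast neuronal release and the most abundant synaptotagmin here, had 1420, 1521 and 1504 in shControl and 1421, 1297 and 1499 in shZDHHC20. These overlapped, and its log2 fold change of -0.08 did not pass (95% interval -0.22 to 0.06). SYT7, a sensor of high calcium affinity, and SYT12 had log2 fold changes of 0.08 and 0.09 and did not pass.

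None of the 4 Qbc-SNAREs passed. SNAP47 had the highest level per kilobase of this role, with 878, 689 and 756 in shControl and 740, 784 and 745 in shZDHHC20, and a log2 fold change of -0.03 (95% interval -0.21 to 0.16). SNAP23, the widely expressed relative of SNAP25, was at 0.00 (95% interval -0.20 to 0.21). SNAP25, the neuronal form, was near the floor of the table, with 10.1, 8.03 and 8.01 in shControl and 8.48, 5.63 and 14.4 in shZDHHC20. Its 95% interval of -1.08 to 1.14 was the only one among the 26 members not past the threshold to reach beyond 1.5-fold. SNAP29, which also serves autophagosome fusion, was at -0.12 (adjusted p = 0.424), and exons of SNAP23, SNAP29 and SNAP47 overlap genes on the other strand.

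Of the plasma membrane syntaxins, STX2 rose and STX1A, STX3 and STX4 did not pass. STX2, a syntaxin of epithelial surfaces, had 899, 947 and 888 in shControl and 1234, 1052 and 1155 in shZDHHC20. All 3 shZDHHC20 libraries were higher, with a log2 fold change of 0.33 (SE 0.0702, adjusted p = 0.00835). STX1A, the syntaxin of regulated secretion, had 605, 568 and 584 in shControl and 441, 653 and 435 in shZDHHC20. Here the second shZDHHC20 library lay above all shControl libraries and the others below them. The log2 fold change was -0.23 (adjusted p = 0.309), and -0.42 (adjusted p = 0.000853) without that library. STX3 and STX4, both surface syntaxins of many cell types, were at 0.09 and 0.00.

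Among the 6 Qa-SNAREs of internal membranes, 3 rose (50%) and none fell. Of all genes 4.61% were higher, and of those averaging 100 or more 917 of 10908, and the shares were not tested. STX12, a syntaxin of recycling endosomes, had 426, 477 and 452 in shControl and 574, 645 and 625 in shZDHHC20. The groups were clearly apart, at 0.44 (SE 0.0795, adjusted p = 0.00271). STX17, which acts in the fusion of autophagosomes with lysosomes, had 210, 191 and 205 in shControl and 259, 268 and 273 in shZDHHC20. Its log2 fold change was 0.40 (SE 0.0980, adjusted p = 0.0180). STX7, a syntaxin of late endosomes and lysosomes, had 1209, 1222 and 1197 in shControl and 1493, 1313 and 1475 in shZDHHC20. All were higher, by 0.24 (SE 0.0635, adjusted p = 0.0285). STX5 of the Golgi, the highest of this role per kilobase, had 811, 754 and 747 in shControl and 726, 846 and 751 in shZDHHC20, and its log2 fold change was 0.00. STX16 of the trans-Golgi network and STX18 of the endoplasmic reticulum were at -0.02 and -0.09. STX16 shares its locus with STX16-NPEPL1. Exons of SYT1, STX1A, STX2, STX3, STX17, STX18, VTI1A, VTI1B, VAMP1, NAPA and STXBP2 overlap genes on the other strand. Whether the counting used strand is not given in the sources used here. SYT7, STX3, VTI1B, NAPA and STXBP2 share exon bases with other genes on their own strand.

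Bases before the start were sought for SYT11, STX6, STX12 and STX2. Those of STX12 and STX2, which both rose, were printed because no annotated exon overlaps them. SYT11 and STX6, which fell, gave no stretch that could be printed. The printed stretches cover 190 bases, from 250 to 61 before the RefSeq start, on GRCh38.p14, with motif matches in capitals. STX12 is on the plus strand, chr1:27772969-27773158, and STX2 on the minus strand, chr12:130839311-130839500.
STX12: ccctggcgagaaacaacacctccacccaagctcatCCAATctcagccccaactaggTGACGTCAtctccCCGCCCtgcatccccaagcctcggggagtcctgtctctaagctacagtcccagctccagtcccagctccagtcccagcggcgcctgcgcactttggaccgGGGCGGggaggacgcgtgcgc
STX2: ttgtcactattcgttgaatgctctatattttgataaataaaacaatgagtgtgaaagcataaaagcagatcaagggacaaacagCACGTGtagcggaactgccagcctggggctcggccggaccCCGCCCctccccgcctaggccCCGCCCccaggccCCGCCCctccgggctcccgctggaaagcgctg
The motifs searched, on both strands, were the E-box CACGTG, the cyclic AMP response element TGACGTCA, the CCAAT box CCAAT and the GC box GGGCGG, none of which overlaps another within these sequences. In the STX12 stretch there were 1 response element, 1 CCAAT box and 2 GC boxes, and in that of STX2 1 E-box and 3 GC boxes. Over the 250 bases before the start, the E-box was in 6 of 36 members with a promoter entry (16.7%) and 6.49% of all 27305 promoters. The response element was in 5.56% of the members and 1.77% of all, the CCAAT box in 33.3% and 33% and the GC box in 66.7% and 42.3%. The comparison promoters were not limited to genes tested here or matched in level, so these shares are no result about the members. These are matches of letters only.

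One Qb-SNARE and 1 Qc-SNARE passed, in opposite directions, each 25% of the 4 members of its role. That is near the 21.7% of genes averaging 100 or more. GOSR2, a Golgi SNARE of early secretory transport, had 655, 692 and 667 in shControl and 808, 838 and 795 in shZDHHC20. It was higher in all 3, by 0.28 (SE 0.0656, adjusted p = 0.0149), and shares exon bases with AC005670.2. STX6, a Qc-SNARE of the trans-Golgi network and endosomes, had 813, 826 and 845 in shControl and 630, 563 and 618 in shZDHHC20. It was lower in all 3, at -0.46 (SE 0.0700, adjusted p = 0.000907), and shares exon bases with AL162431.2.

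The other Qb- and Qc-SNAREs did not pass. GOSR1 of the Golgi, the highest Qb-SNARE per kilobase, had 1786, 1782 and 1712 in shControl and 1733, 1677 and 1886 in shZDHHC20, a log2 fold change of 0.00. STX10, a relative of STX6 and the highest Qc-SNARE per kilobase, had 544, 529 and 548 in shControl and 506, 597 and 477 in shZDHHC20, at -0.04. VTI1A and VTI1B, endosomal Qb-SNAREs, were at 0.12 and 0.05, the endosomal STX8 at 0.12 and BET1, of transport to the Golgi, at 0.14.

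Of the 9 R-SNAREs, 6 passed the threshold (66.7%, beside 11.5% of all genes and 21.7% of those averaging 100 or more), 4 higher and 2 lower. Shares were not tested between roles. VAMP8 (endobrevin), an endosomal and granule R-SNARE, had 905, 962 and 949 in shControl and 1164, 1423 and 1112 in shZDHHC20. Its groups were apart, at 0.38 (SE 0.0843, adjusted p = 0.00963). VAMP3 (cellubrevin), of recycling endosomes, had 2914, 2962 and 2986 in shControl and 3504, 3225 and 3621 in shZDHHC20. The rise was 0.22 (SE 0.0535, adjusted p = 0.0163).

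VAMP7, a longin R-SNARE of late endosomes and lysosomes, had 2252, 2340 and 2221 in shControl and 2714, 2456 and 2626 in shZDHHC20. This was a rise of 0.19 (SE 0.0546, adjusted p = 0.0360). SEC22B, of transport between the endoplasmic reticulum and Golgi, had 1984, 1977 and 2000 in shControl and 2304, 2172 and 2300 in shZDHHC20. It rose by 0.18 (SE 0.0514, adjusted p = 0.0341), and a pseudogene, SEC22B4P, resembles it.

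VAMP5 and VAMP2 fell. VAMP5 (myobrevin), known from muscle, had 88.9, 106 and 103 in shControl and 70.0, 57.3 and 57.7 in shZDHHC20. The groups did not overlap, with a log2 fold change of -0.69 (SE 0.168, adjusted p = 0.0172). VAMP2 (synaptobrevin 2), the R-SNARE of synaptic and granule release, had 846, 913 and 850 in shControl and 684, 815 and 608 in shZDHHC20. Its log2 fold change of -0.32 passed narrowly (SE 0.0940, adjusted p = 0.0446), and it shares exon bases with AC129492.3. With each library scaled to an equal sum, VAMP2 no longer passed (adjusted p = 0.105).

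YKT6, a lipid-anchored R-SNARE, had 3304, 3265 and 3305 in shControl and 3530, 4457 and 3709 in shZDHHC20. These groups did not overlap either, but the adjusted p was 0.0505 at a log2 fold change of 0.24. VAMP1 and VAMP4, of synaptic vesicles and the trans-Golgi network, were at 0.22 and -0.13 and did not pass. The summed normalized counts of the 9 R-SNAREs were 12799 to 13040 in shControl and 14500 to 15090 in shZDHHC20, 114% of shControl, a sum dominated by the abundant members and given without a test.

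None of the disassembly factors and SM proteins passed. NSF had 926, 869 and 822 in shControl and 984, 970 and 1138 in shZDHHC20, with no overlap and a log2 fold change of 0.24 (adjusted p = 0.0638). STXBP3 was at 0.30 (adjusted p = 0.0815), NAPA at 0.20 (adjusted p = 0.160) and STXBP2 at -0.14 (adjusted p = 0.390). NSF has a pseudogene, NSFP1.

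Levels can be compared between genes only per length. In shControl the mean normalized count per kilobase of merged exons was 1070 for VAMP3, 948 for VAMP8, 888 for YKT6 and 852 for VAMP7, and these 4 R-SNAREs led all 41 genes. STX5 followed at 342, STX10 at 301, VAMP2 at 266, STX2 at 245 and SYT1 at 228. At the low end were SNAP25 at 2.60, SYT12 at 4.55 and SYT5 at 11.6. Merged exons of all isoforms are a rough length, so the order of close neighbours is not firm.

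A wider list of fusion genes outside the 44, comprising other SNAREs, synaptotagmins, C2 proteins, SM proteins, cofactors and tethers, had 86 genes tested, of which 18 passed, 11 higher and 7 lower. That is 20.9%, beside 11.5% of all genes and 21.7% of genes averaging 100 or more, and near the latter, so the count is no result about the list. Their median log2 fold change was 0.07. The exocyst, which tethers vesicles at the plasma membrane, had 4 of 9 subunits higher (44.4%) and none lower. Of all genes 4.61% were higher, and of those averaging 100 or more 917 of 10908. The exocyst had the largest share passing among the roles of the wider list, and shares were not tested between roles. EXOC6 had the largest change of the exocyst genes that passed, at 0.38 (adjusted p = 0.0192), with EXOC2 at 0.30 and EXOC5 at 0.28. ZW10, a tether between the Golgi and endoplasmic reticulum, had 635, 630 and 619 in shControl and 1007, 954 and 1030 in shZDHHC20, a rise of 0.67 (SE 0.0647, adjusted p = 2.74e-05). USO1 of the same role rose by 0.29. The COG complex of the Golgi went both ways, with COG5 lower at -0.52 (adjusted p = 0.000567) and COG1 and COG6 higher at 0.30 and 0.25. Among factors for regulated release, SNAPIN, a SNAP25-binding protein, fell at -0.34 (adjusted p = 0.00606), and UNC13A, a priming factor, was -1.09 on low counts (adjusted p = 0.0493). DOC2B, SYT15 and TGFBRAP1 fell as well, and ESYT1, LLGL2 and VPS53 rose. None of the 8 other SNAREs tested passed.

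The calls depended on which libraries were used. SYT11, STX6 and STX12 passed whichever of the 6 libraries was left out, with adjusted p at most 0.00262, 0.0190 and 0.0333. The other 12 genes lost their call without at least 1 library. All 15 kept their direction, which was fixed beforehand because their groups did not overlap. Without shControl replicate 1, 2 or 3, 4 of 41 members passed each time (9.76%), with 1036, 1167 and 1042 of all 22189 genes. Without shZDHHC20 replicate 1 or 3, 7 and 6 members passed (17.1% and 14.6%), with 1257 and 1781 of all genes. With all 6 libraries 2541 of all genes passed, so calls in these fits were fewer across all genes as well. Without shZDHHC20 replicate 2, the library that stood apart, 19 members (46.3%) and 4268 of all genes passed. STX7, STX17, VAMP2, VAMP3, VAMP7 and SEC22B passed when that library was left out and failed when any other was, with adjusted p up to 0.149, 0.0885, 0.209, 0.109, 0.177 and 0.141. GOSR2, STX2, SYT5, SYT17, VAMP5 and VAMP8 failed without 3 or 4 of the libraries, with adjusted p up to 0.0901, 0.0750, 0.106, 0.102, 0.0967 and 0.0896. Without the mean-variance trend in the moderated test, SYT11 alone passed among the members.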

How the data were processed

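RNA from PANC-1 cells was made into strand-specific libraries, 3 shControl and 3 shZDHHC20. The deposited table held normalized read counts as a signal per Ensembl gene. Its name says FPKM, but every value above 0 was a whole multiple (tolerance 0.05) of its library's smallest value, so the deposited signal was not divided by length and the unit differs from that first planned. The submitters' processing notes name hg19, and the aligner, counter and use of strand are not given in the sources used here. Symbols came first from a reference list of gene names, by which 27175 of 27394 identifiers were named. GENCODE 29 (GRCh38) gave further symbols where it held them, and the exon lengths. Promoters came from RefSeq.

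Groups were taken from the sample titles. The columns, headed siZDHHC20 and NC, were matched to them by replicate number, with NC read as the negative control. Genes with a mean of at least 1 were tested with limma 3.58.1 in R 4.3.3 (lmFit, eBayes with trend) on log2(value + 0.1), without a block. P-values were adjusted by Benjamini-Hochberg over all 22189 genes, with a threshold of 0.05. The code was tested on simulated data. Between 22585 and 23162 genes were above 0 per library. With 3 libraries per group, an exact permutation test cannot go below 0.1. Alternatives covered pseudocount, filter, scaling, variance model, replicate block and leaving out each library. The members and lists were chosen with earlier results of these data known. Named were all members past the threshold, the highest per kilobase of each role, and up to 3 called genes per wider role, some of which are not reported here. Python 3.11.15, pandas 2.3.3 and matplotlib 3.10.9 were used.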

Additional observations from a re-analysis of the deposited data

How the results depend on the processing

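All 15 calls kept their direction under each of the 16 refits, which was largely fixed beforehand. With no overlap between the groups, leaving out 1 library could not reverse a direction. The filter, variance and block settings leave fold changes as they are, and the median-ratio factors were 1 in every library. Without the mean-variance trend, 351 genes of all passed, 1 member (0 higher, 1 lower) and 2 of the wider list. With unadjusted p under 0.01 and a fold of at least 1.5, 544 genes and 3 members passed. Leaving out 1 library gave 1036 to 4268 genes of all, 4 to 19 members, 1 to 13 higher, 2 to 6 lower and 3 to 27 of the wider list. Median log2 fold changes of the members then ran from 0.03 to 0.09. VAMP2 lost its call with a pseudocount of 0.01, equal library sums or quantile normalization. With a replicate block, 12 members and 1942 genes of all passed, and STX7, VAMP7 and SEC22B were lost. Same-numbered libraries did not deviate together (r = -0.0518, -0.0562 and -0.0215 over 15101 genes), so the numbers were not taken to pair them. The planned edgeR test on whole reads was not run.

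Of the 26 members that were not called, 10 changed sign under at least 1 alternative. Under equal library sums SNAP47 was 0.0149 and STX16 0.0241, and under quantile normalization SNAP25 was -0.0851 and STX16 0.00193. Leaving out 1 library gave SYT7 -0.0034 to 0.154, SYT12 -0.0364 to 0.175, SNAP23 -0.0326 to 0.0618, SNAP25 -0.321 to 0.350, SNAP47 -0.108 to 0.0671, STX4 -0.0318 to 0.0224, STX5 -0.0614 to 0.0490, STX16 -0.0335 to 0.000297, GOSR1 -0.0454 to 0.0393 and STX10 -0.137 to 0.0249. The cause was not tested.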

Other observations

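Ratios between members within a library do not depend on its scaling. The pairs were picked after the values were seen, from members that had moved in opposite directions with no overlap between groups, so the separation of the ratios was fixed by that choice and they are given as a description without a test. VAMP3 to VAMP2 was 3.40 ± 0.14 (SD, n = 3) in shControl and 5.01 ± 1.0 in shZDHHC20. VAMP8 to VAMP2 was 1.08 ± 0.0325 and 1.76 ± 0.0636, and STX12 to STX6 was 0.545 ± 0.0285 and 1.02 ± 0.117.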
